A study of Mus musculus with 12 samples.

Results

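Toll-like receptor (TLR) genes were followed across all libraries of a study of primary mouse microglia, the macrophages of the brain. The 10 genes *Tlr1*, *Tlr2*, *Tlr3*, *Tlr4*, *Tlr5*, *Tlr6*, *Tlr7*, *Tlr8*, *Tlr9* and *Tlr13* were taken by name from a table of 48623 genes, and each name matched 1 identifier. Microglia came from newborn WT mice on the C57BL/6J background and from newborn mice homozygous for a knock-in of the R47H substitution in *Trem2* (*Trem2* R47H KI). Each genotype had 3 cultures, and each culture was sequenced once without treatment and once after IL-4, a cytokine that drives an anti-inflammatory state in macrophages, given at 20 ng/ml for 48 h. Values of a group are listed in the order of its cultures, which was T13, T33, T43 in WT and T15, T22, T32 in KI. There were thus 12 libraries in 4 groups of 3, WT untreated, WT with IL-4, KI untreated and KI with IL-4. The study describes the WT mice as littermates of the KI mice, and pups of the knock-in line were grown in separate cultures whose genotype was read afterwards. The cells had spent about 3 weeks in mixed glial culture before isolation, and no library came from freshly isolated microglia. Values are TPM, transcript abundances that take transcript length into account and are scaled to the same total in every library, so levels can be compared between genes.

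TLRs are membrane proteins that recognise parts of microbes and of damaged cells. *Tlr1*, *Tlr2*, *Tlr4*, *Tlr5* and *Tlr6* encode receptors of the cell surface. TLR2 pairs with TLR1 or TLR6 to bind bacterial lipopeptides, TLR4 binds lipopolysaccharide with the help of CD14 and MD-2, and TLR5 binds flagellin. *Tlr3*, *Tlr7*, *Tlr8*, *Tlr9* and *Tlr13* encode receptors of the endosome that bind nucleic acids. TLR3 binds double-stranded RNA, TLR7 and TLR8 single-stranded RNA, TLR9 unmethylated CpG DNA, and TLR13, which mice have and humans lack, bacterial ribosomal RNA. All but TLR3 signal through the adaptor MYD88, TLR3 signals through TRIF, and TLR4 uses both, towards the transcription factors NF-κB and IRF. In the brain, microglia are the main cells that carry most of these receptors.

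*Tlr8* and *Tlr2* were the TLR genes that changed with IL-4. Stretches before their transcription starts are shown because letters of motifs of an IL-4-activated factor and of NF-κB stand in them. Both come from the RefSeq promoter table of the GRCm38.p6 build, read 5′ to 3′ on the minus strand, with annotated exon bases left out. For *Tlr8* all 250 bases before the start are shown, chrX:167264330-167264579, and the capitals mark the letters TTC and GAA with any 4 bases between them, the spacing that STAT6, the transcription factor of the IL-4 receptor, binds best. For *Tlr2* the 91 bases at the far end of the window were free of exons, chr3:83841768-83841858, and the capitals mark overlapping matches to the NF-κB motif. These matches lay 163 to 173 bases before the RefSeq start.
Tlr8: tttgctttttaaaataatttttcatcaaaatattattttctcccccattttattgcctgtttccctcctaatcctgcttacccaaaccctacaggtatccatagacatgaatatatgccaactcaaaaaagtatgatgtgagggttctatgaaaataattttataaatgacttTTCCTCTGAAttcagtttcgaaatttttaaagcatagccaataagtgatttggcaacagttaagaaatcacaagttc
Tlr2: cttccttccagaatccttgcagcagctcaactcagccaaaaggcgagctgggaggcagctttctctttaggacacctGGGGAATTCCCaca

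Of 32851 promoter windows in the table, 5.85% held the STAT6 letters in their 250 bases on either strand, and 2.26% held the NF-κB motif in the first 91 bases. The STAT6 letters of *Tlr8* lay 68 to 77 bases before the start, and 6 of them also read as the PU.1 letters GAGGAA on the opposite strand, which stood in 23.3% of the 250-base windows. PU.1 is a transcription factor of macrophages. The windows of *Tlr1*, *Tlr5*, *Tlr6*, *Tlr9* and *Tlr13* were searched in the same way, with the AP-1 letters TGANTCA added, whereas that of *Tlr3* had no bases free of exons and *Tlr4* and *Tlr7* were not searched. The searches found GAGGAA in the windows of *Tlr1* and *Tlr13* and both GAGGAA and TGANTCA in that of *Tlr9*. A match of letters is not a measured binding site.

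All 18 microglial marker genes listed for this check were found above 1 TPM in at least 1 library, although *Siglech* did not exceed 5.51 TPM and *Sall1* did not exceed 10.8 TPM in any library. Summed, these markers ranged from 22460 to 24110 TPM in untreated WT and from 10284 to 19712 TPM in untreated KI microglia. KI culture T15 stood apart, with the lowest sum of microglial markers and a sum of 8 astrocyte markers of 4258 TPM untreated, against 143 to 607 TPM in untreated WT. Markers of mural cells and fibroblasts, the cells of vessel walls and connective tissue, summed to 175 to 413 TPM in untreated WT and to 1281 to 1497 TPM in untreated KI. In such bulk samples fewer microglia and less RNA per microglial cell cannot be told apart. *Trem2* was lower in KI (log2 difference -1.43, limma F-test, adjusted p = 0.00763), though not past the threshold with T33 or T43 left out (adjusted p = 0.106 and 0.0766), without the variance trend (0.0600) or with low genes kept in the test (0.126).

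*Tlr2*, *Tlr13* and *Tlr7* were the most abundant TLR genes in untreated microglia, and 8 of the 10 genes were expressed above the limit used for testing. In untreated WT, *Tlr2* was at 183 ± 93.7 TPM, *Tlr13* at 126 ± 28.5 TPM and *Tlr7* at 102 ± 28.7 TPM (SD, n = 3 each). The ranges of these 3 genes overlapped, and each lay above every value of the genes after them. *Tlr4* at 24.3 ± 9.23 TPM and *Tlr8* at 23.1 ± 7.55 TPM (SD, n = 3 each) came next and overlapped each other. *Tlr1* at 11.3 ± 2.98 TPM, *Tlr3* at 9.81 ± 6.81 TPM and *Tlr6* at 3.73 ± 1.42 TPM followed (SD, n = 3 each), each overlapping its neighbour. *Tlr9* did not exceed 0.437 TPM in any library, and *Tlr5* was listed at 0 in all 12. The order of the first 5 genes was the same in untreated KI microglia. With IL-4 *Tlr2* had moved to the fourth place and *Tlr8* to the third in both genotypes.

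The sum of the 10 genes was 483 ± 115 TPM in untreated WT, 387 ± 31.6 TPM in WT with IL-4, 358 ± 56.7 TPM in untreated KI and 298 ± 31.1 TPM in KI with IL-4 (SD, n = 3 each). *Tlr2* made up 36.3% ± 9.57 of this sum in untreated WT and 12.6% ± 3.38 with IL-4 (SD, n = 3 each). *Tlr8* made up 4.72% ± 0.447 and 18.9% ± 1.75 (SD, n = 3 each). In KI microglia *Tlr2* went from 33.9% ± 10.9 to 11.1% ± 3.13, and *Tlr8* from 4.53% ± 1.07 to 20.1% ± 4.35 (SD, n = 3 each). In every library the endosomal receptors *Tlr7* and *Tlr13* held a share between 14.7% and 39.3% each.

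**Figure D1:**
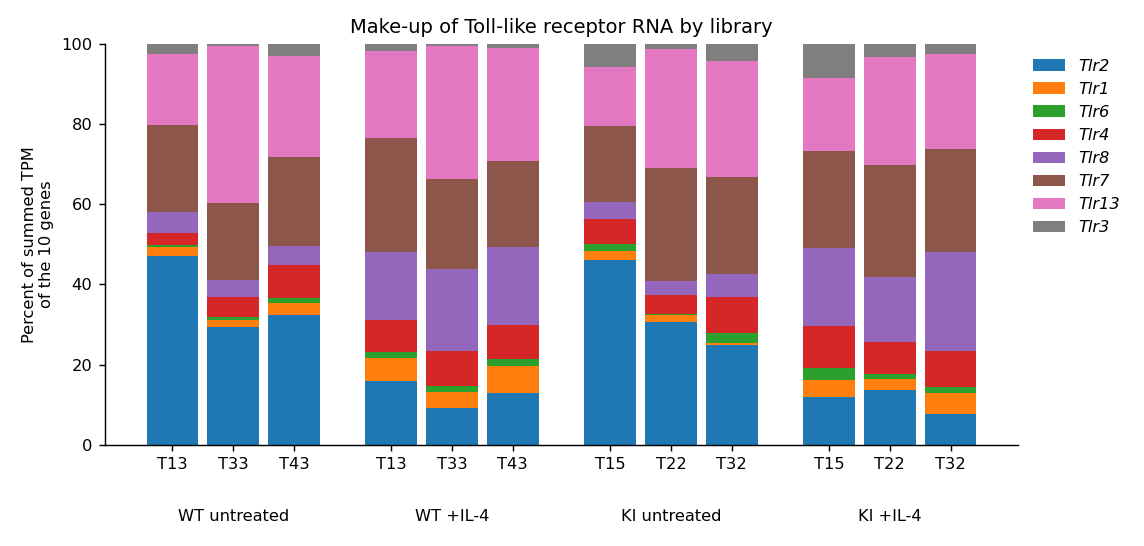
Each bar is 1 library, grouped by genotype and treatment and named by culture, and its colours give the percent that each gene holds of the summed TPM of the 10 TLR genes (*Tlr5* and *Tlr9* are too low to be drawn). The share of *Tlr2* is smaller and that of *Tlr8* larger in every IL-4-treated library than in every untreated one.

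IL-4 lowered *Tlr2* and raised *Tlr8*, and these were the 2 of 8 tested TLR genes past the threshold of 0.05 in limma's F-test. Over all 11204 genes tested, 0.893% passed this test, 0.75% as higher and 0.143% as lower. At an unadjusted p under 0.05 there were 3 of 8, *Tlr1* being the other, against 7.27% of all genes. In the test of the average IL-4 difference alone there were likewise 2 of 8 past the adjusted threshold, against 1.35% of all genes, and 3 of 8 at an unadjusted p under 0.05, against 9.26%. *Tlr2* (chromosome 3, 83836272 to 83841767, minus strand of GRCm38) measured 290.2, 118 and 140 TPM in WT without treatment, and 66.6, 32.6 and 49.4 TPM after IL-4. In KI it measured 137, 125 and 92.3 TPM without treatment and 32.5, 39.6 and 25.3 TPM after IL-4. Every treated library lay below every untreated one, which held for 0.25% of the genes tested, and 2.51% were lower with IL-4 in all 6 cultures. Within a culture *Tlr2* was 2.82-fold to 4.35-fold lower with IL-4. The log2 difference averaged over both genotypes was -1.82 (SE 0.24, limma F-test, adjusted p = 0.00301), and it was -1.77 without culture T15 (adjusted p = 0.0100). The adjusted p was 0.0897 when genes of low expression were kept in the test.

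*Tlr8* (chromosome X, 167242696 to 167264329, minus strand) measured 31.6, 17.2 and 20.5 TPM in WT without treatment and 71.1, 72.4 and 75.1 TPM after IL-4. In KI it measured 12.6, 14.8 and 21.1 TPM without treatment and 52.9, 46.9 and 82.5 TPM after IL-4. All 6 treated libraries were above all 6 untreated ones, as for 1.12% of the genes tested, and the rise within a culture was 2.25-fold to 4.22-fold. The log2 difference over both genotypes was 1.75 (SE 0.20, limma F-test, adjusted p = 0.00139), and 1.71 without T15 (adjusted p = 0.00330). *Tlr7* lies 40599 bases from *Tlr8* on the same strand of chromosome X (167304929 to 167330558) and encodes the other receptor for single-stranded RNA. WT libraries held 134, 77.6 and 96.0 TPM of *Tlr7* without treatment and 119, 80.01 and 83.0 TPM with IL-4. KI libraries held 56.7, 115 and 89.5 TPM without treatment and 66.4, 81.0 and 85.2 TPM with IL-4. Treated and untreated values of *Tlr7* overlapped in both genotypes, and its average log2 difference was -0.11 (95% interval -0.53 to 0.30, limma F-test, adjusted p = 1.00), from -0.20 without T15 to -0.02 without T22. The ratio of *Tlr8* to *Tlr7* TPM was between 0.129 and 0.236 in the untreated and between 0.579 and 0.969 in the treated libraries.

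**Figure D2:**
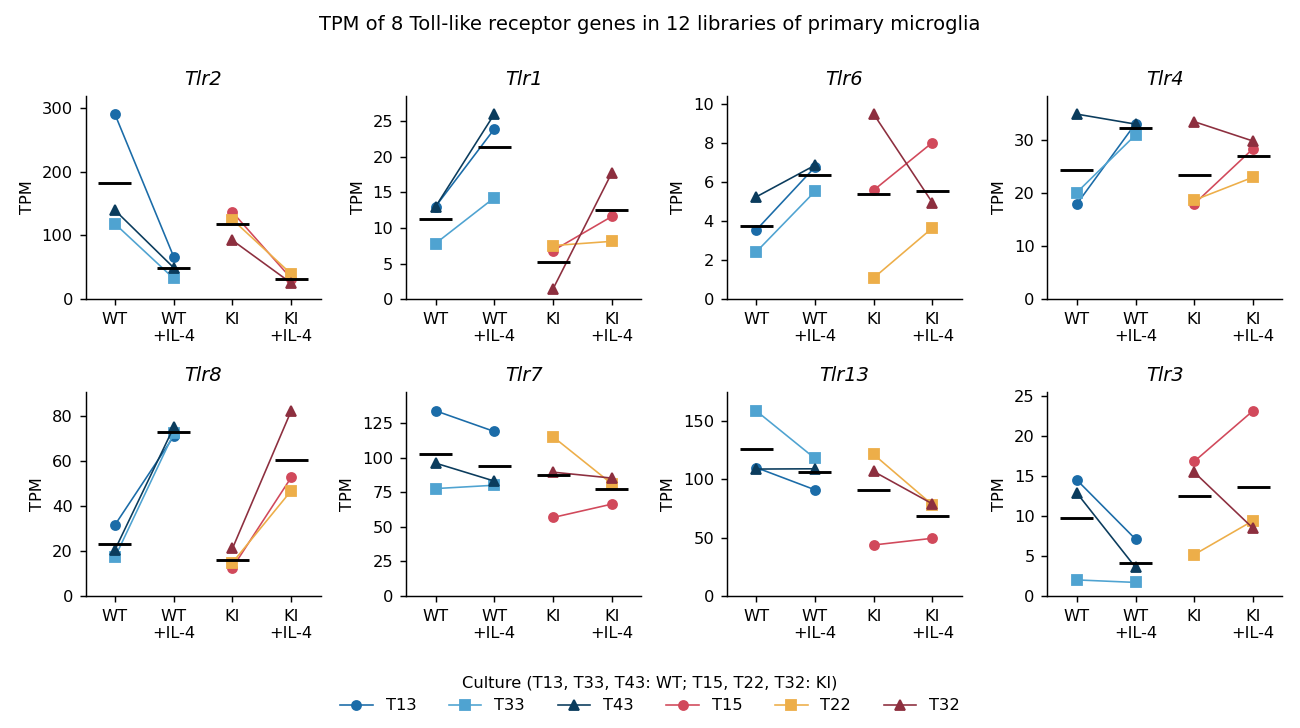
Each panel gives the TPM of 1 TLR gene in the 4 groups of 3 libraries, with a line joining the untreated and IL-4-treated library of a culture and a black bar at the group mean. *Tlr2* falls and *Tlr8* rises in all 6 cultures, from 92.3 to 290.2 TPM untreated to 25.3 to 66.6 TPM treated for *Tlr2*.

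The genes of the partners of TLR2 did not pass the IL-4 test. *Tlr1* (chromosome 5, 64924679 to 64933563, minus strand) measured 12.997, 7.82 and 12.97 TPM in WT without treatment and 23.9, 14.2 and 26.0 TPM after IL-4. In KI it measured 6.82, 7.53 and 1.45 TPM without treatment and 11.6, 8.12 and 17.7 TPM after IL-4. It was higher with IL-4 in 6 of 6 cultures, as were 5.73% of the genes tested, by 0.10 to 2.93 on the log2 scale. The average of 1.05 (SE 0.35) did not pass the threshold (limma F-test, adjusted p = 0.585), and without culture T32, where the untreated library was the lowest, it was 0.62. *Tlr6*, 18467 bases away on the same strand (64952031 to 64960097), ranged from 1.09 to 9.49 TPM untreated and from 3.66 to 8.03 TPM with IL-4. It was higher with IL-4 in 5 of 6 cultures and differed on average by 0.47 on the log2 scale (SE 0.40, limma F-test, adjusted p = 0.990), from 0.25 without T22 to 0.74 without T32. The sequences of *Tlr1* and *Tlr6* are closely related, so their values may depend on how Salmon divided shared reads, which was not tested. TPM of *Tlr2* were 7.66 to 17.6 times the sum of *Tlr1* and *Tlr6* in untreated libraries and 1.11 to 3.36 times that sum in treated ones.

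*Tlr4* (chromosome 4, 66827584 to 66930284, plus strand) measured 17.9, 20.1 and 34.9 TPM in WT without treatment and 33.1, 31.0 and 32.99 TPM after IL-4. In KI it ranged from 17.97 to 33.5 TPM without treatment and from 23.0 to 29.8 TPM after IL-4. It was higher in the 4 cultures that started low and lower in T43 and T32, which had started at 34.9 and 33.5 TPM. Its average log2 difference was 0.35 (95% interval -0.11 to 0.82, limma F-test, adjusted p = 0.948). *Tlr13* (chromosome X, 106143204 to 106160493, plus strand) ranged from 43.6 to 159 TPM untreated and from 49.4 to 118 TPM with IL-4, a difference of -0.26 (95% interval -0.76 to 0.23, limma F-test, adjusted p = 0.995). *Tlr3* (chromosome 8, 45395665 to 45411080, minus strand) had log2 differences of -1.61 to -0.16 in the 3 WT cultures and of -0.80 in KI culture T32, and was higher in T15 and T22, with an average of -0.38 (SE 0.48, limma F-test, adjusted p = 0.987), which ranged from -0.57 without T33 to -0.15 without T32.

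**Figure D3:**
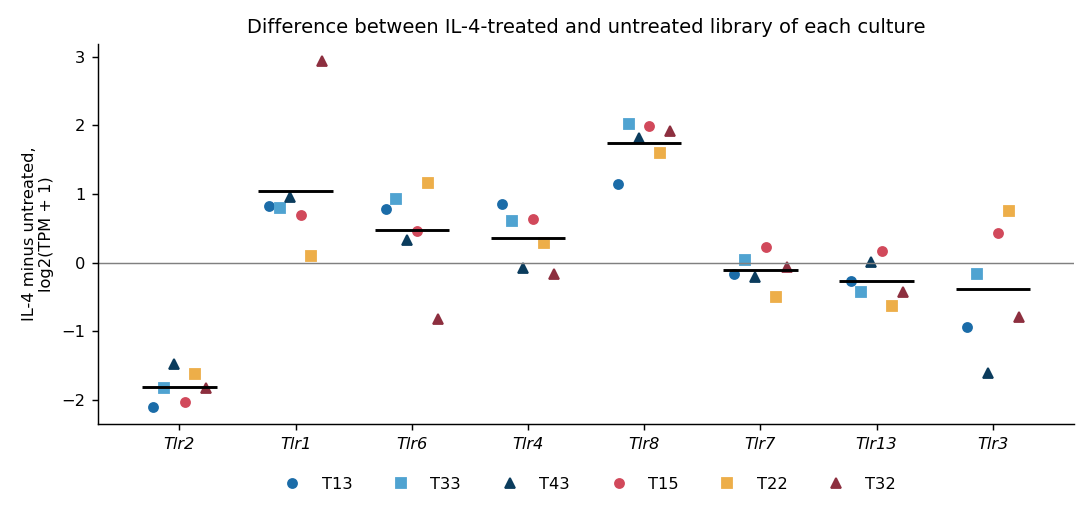
The vertical axis gives the difference between the IL-4-treated and the untreated library of a culture in log2(TPM + 1), with 1 point per culture and a bar at the mean of the 6 cultures. All 6 points lie below 0 for *Tlr2*, and all 6 lie above 0 for *Tlr8* and *Tlr1*, where culture T32 stands at 2.93 for *Tlr1*.

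Genotype changed none of the 8 tested TLR genes past the threshold in limma's F-test, and at an unadjusted p under 0.05 there were also 0 of 8, against 1.65% and 16.1% of all genes tested. The test of the average genotype difference alone, which leaves the interaction out, had 3 of 8 at an unadjusted p under 0.05, *Tlr1*, *Tlr2* and *Tlr13*, against 21.3% of all genes, and 0 of 8 past the adjusted threshold, against 5.13% (limma, lowest adjusted p = 0.134). Past the adjusted threshold of the F-test, 1.29% of all genes were higher and 0.357% lower in KI, and these shares were 0.946% and 0.652% after median-ratio scaling and 0.803% and 0.5% after quantile normalization. As deposited, 7 of the 8 genes were lower in KI on average over both treatments, 5 of them by less than the microglial markers, whose mean was at -0.56, and the median log2 difference of the 8 was -0.32, against 0.13 over all genes tested. *Tlr1* was the furthest below WT, at -0.94 (95% interval -1.69 to -0.19, limma F-test, adjusted p = 0.312). Its 3 untreated KI libraries lay below the 3 untreated WT libraries, by as little as 7.53 against 7.82 TPM, which was the case for 4.55% of the genes tested, whereas the libraries with IL-4 overlapped. *Tlr13* differed by -0.61 (95% interval -1.11 to -0.11, limma F-test, adjusted p = 0.343). Without treatment, WT libraries held 110.04, 159 and 109 TPM of *Tlr13* and KI libraries 43.6, 121 and 107 TPM. With IL-4, WT libraries held 91.0, 118 and 109 TPM and KI libraries 49.4, 78.1 and 78.9 TPM, where the groups did not overlap, as for 5.79% of the genes tested. Without T15, the KI culture with the lowest *Tlr13*, the difference was -0.27, and with the mean of the astrocyte markers as a covariate it was -0.09 (limma F-test, adjusted p = 0.967). That covariate moved the median over the 4 tested endosomal genes from -0.322 to -0.104. The median over the 4 tested cell-surface genes went the other way, from -0.35 to -0.645.

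*Tlr2* differed by -0.55 between genotypes (adjusted p = 0.425), *Tlr8* by -0.39 (adjusted p = 0.544), *Tlr7* by -0.26 (adjusted p = 0.754) and *Tlr4* by -0.15 (adjusted p = 0.895) in limma's F-test. Leaving out single cultures moved each of these 4 values by over 1.5 times without turning its sign. With 1 culture left out at a time, *Tlr2* ranged from -0.81 without T33 to -0.23 without T13, and *Tlr8* from -0.61 without T32 to -0.27 without T15. *Tlr7* ranged from -0.40 without T33 to -0.06 without T13, and was -0.07 without T15. *Tlr4* ranged from -0.33 without T32 to -0.01 without T43. With IL-4 the KI libraries held 23.0 to 29.8 TPM of *Tlr4*, all below the WT libraries at 31.0 to 33.1 TPM, as for 5.79% of the genes tested. Without treatment the genotypes overlapped for *Tlr4*. *Tlr6* differed by -0.02 (95% interval -0.88 to 0.85, limma F-test, adjusted p = 0.963). Over all alternatives, including values relative to the microglial markers, *Tlr6* ranged from -0.46 to 0.54, *Tlr2* from -0.83 to 0.01 and *Tlr4* from -0.36 to 0.41. *Tlr3* was the gene that was higher in KI on average, by 1.01 (95% interval -0.02 to 2.05, limma F-test, adjusted p = 0.415). WT libraries held 14.5, 2.00 and 12.9 TPM of *Tlr3* without treatment and 7.11, 1.69 and 3.57 TPM with IL-4. KI libraries held 16.8, 5.18 and 15.5 TPM without treatment and 23.2, 9.42 and 8.47 TPM with IL-4. The genotypes overlapped for *Tlr3* without IL-4, and with IL-4 all KI values were above all WT values, as for 12.7% of the genes tested. *Tlr3* was highest in the IL-4-treated library of T15, the culture with the most astrocyte marker RNA. Within T15 it went from 16.8 TPM untreated to 23.2 TPM with IL-4, while the astrocyte markers summed to 4258 and 3298 TPM. Which cells the *Tlr3* RNA came from was not tested. With the mean of the astrocyte markers as a covariate, an alternative added after seeing the data, the genotype difference of *Tlr3* was 0.18 (limma F-test, adjusted p = 0.851). It was 0.66 without T15, and with 1 culture left out at a time it ranged from 0.43 without T33 to 1.42 without T13.

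The mean of the 18 microglial markers was also lower in KI, at -0.56. Of the 17 that were tested, 5 passed the F-test as lower in KI (*Aif1*, *Csf1r*, *Itgam*, *C1qb* and *Fcrls*), against 0.357% of all genes. This count was 3 after quantile normalization, 2 with culture as a random block, 2 with the astrocyte covariate and 1 without T15, so the reference is itself not known to be the same in both genotypes. A lower level of these genes per microglial cell and a smaller share of microglia cannot be told apart. Taken relative to that mean, the log2 difference between genotypes was 0.01 for *Tlr2*, -0.05 for *Tlr13*, 0.17 for *Tlr8*, 0.30 for *Tlr7*, 0.41 for *Tlr4*, 0.54 for *Tlr6*, -0.38 for *Tlr1* and 1.57 for *Tlr3*. Subtracting the marker mean raised every gene by the same 0.56, so the values show where each receptor stood against the markers, and the differences among the receptors are those given above. For these relative values an exact permutation test over cultures gave a 2-sided p of 0.1 for *Tlr3* and *Tlr7*, the smallest that 3 cultures against 3 allow. On the values as deposited the same test gave 0.1 for *Tlr1*, *Tlr13* and the marker mean, 0.2 for *Tlr3* and 0.5 for *Tlr7*. The IL-4 differences relative to the markers were -1.85 for *Tlr2* and 1.71 for *Tlr8* (exact permutation test of signs over 6 cultures, 2-sided p = 0.0312 each, the smallest possible).

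**Figure D4:**
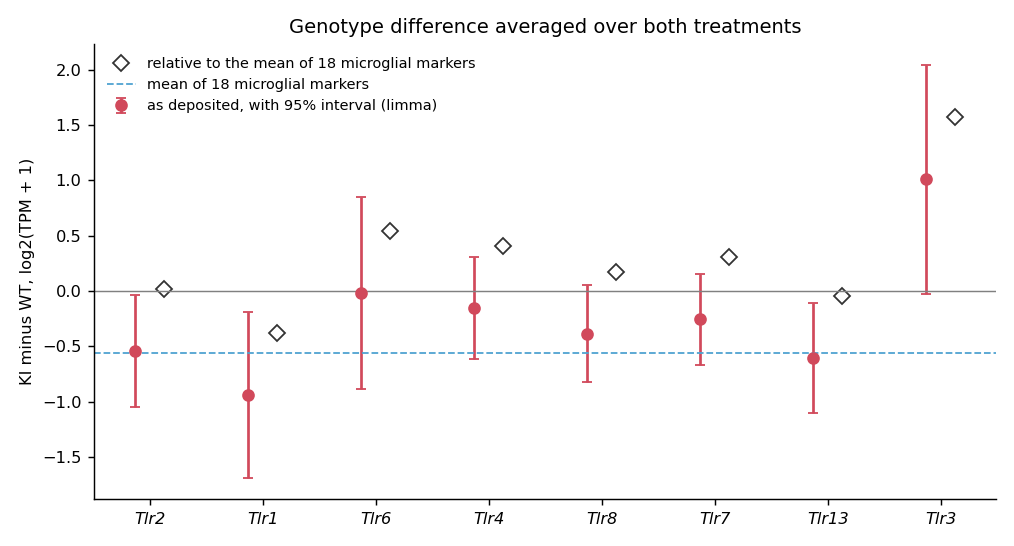
Filled points are the KI minus WT difference of each TLR gene in log2(TPM + 1), averaged over both treatments, with the 95% interval from limma, and open diamonds are the same differences relative to the mean of 18 microglial markers, which is drawn as a dashed line at -0.56. No gene passed the adjusted threshold, and each diamond is its filled point raised by the same 0.56.

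The response to IL-4 was not shown to differ between genotypes for any TLR gene. None of the 8 passed the interaction test, either adjusted or at an unadjusted p under 0.05, against 0% and 3.19% of all genes tested. For *Tlr2* the IL-4 difference was -1.81 in WT (adjusted p = 0.0243) and -1.83 in KI (adjusted p = 0.0286) in limma's test of each genotype. The difference between them was -0.03, with a 95% interval of -1.04 to 0.98. For *Tlr8* it was 1.66 in WT (adjusted p = 0.0168) and 1.83 in KI (adjusted p = 0.00886) in limma's test of each genotype, with a difference of 0.17 and a 95% interval of -0.70 to 1.05. The widest interval was that of *Tlr3*, whose IL-4 difference was -0.90 in WT and 0.13 in KI, a difference of 1.03 with a 95% interval of -1.04 to 3.10.

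Beyond the receptors, 75 genes of TLR co-receptors, trafficking, signalling and targets were listed, and 68 of them were tested. With IL-4, 1 was higher and 1 lower past the threshold, 2.94% of the genes tested against 0.893% of all genes, and both belong to the 6 co-receptors. Between genotypes 0 were higher and 1 was lower, 1.47% of the genes tested, which is near the 1.65% of all genes. *Cd14* encodes the co-receptor that hands lipopolysaccharide to TLR4 and lipopeptides to TLR2. WT libraries held 2415, 1386 and 1331 TPM of *Cd14* without treatment and 704, 429 and 596 TPM after IL-4. KI libraries held 849.6, 1197 and 553 TPM without treatment and 461, 461 and 226 TPM after IL-4. It was lower in 6 of 6 cultures, by -1.36 on average (limma F-test, adjusted p = 0.0310). The call was lost with T13, T33, T43 or T22 left out (adjusted p = 0.109, 0.182, 0.169 and 0.0608), without the variance trend (0.181) and with low genes kept (0.368). *Cd36*, a scavenger receptor that works with TLR2 and TLR6, rose from 245 ± 43.9 to 819 ± 160.1 TPM in WT and from 202 ± 86.9 to 656 ± 215 TPM in KI (SD, n = 3 each), by 1.74 (limma F-test, adjusted p = 0.00305, and 0.113 with low genes kept). *Ly96*, which encodes MD-2, did not pass the threshold (0.22, limma F-test, adjusted p = 0.999, and -0.09 without T32).

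None of the 7 chaperone and trafficking genes passed the threshold for IL-4 or genotype in the values as deposited. *Unc93b1*, which carries endosomal TLRs to their compartment, had a genotype difference of -0.69 (limma F-test, adjusted p = 0.0799, and 0.0484 at -0.84 after median-ratio scaling), and its KI libraries lay below its WT libraries under both treatments, as for 1.23% of the genes tested. Of the 9 endolysosomal proteases and nucleases none passed either test. Of the 5 tested adaptors 1 was lower in KI, *Pik3ap1*, an adaptor that links TLRs to phosphoinositide 3-kinase, with 149 ± 26.6 TPM in WT and 61.2 ± 21.6 TPM in KI without treatment (SD, n = 3 each, limma F-test, adjusted p = 0.0203). It was not past the threshold with T33, T43 or T32 left out (adjusted p = 0.165, 0.102 and 0.0536), without the variance trend (0.0806), with low genes kept (0.171) or with astrocyte markers as a covariate (0.0966). The core adaptors had genotype differences of -0.31 for *Myd88*, -0.70 for *Tirap*, -0.99 for *Ticam1*, which encodes TRIF, and -0.11 for *Ticam2* (limma F-test, adjusted p from 0.467 to 0.969). Their IL-4 differences were -0.08, -0.36, -0.20 and 0.18 (limma F-test, adjusted p from 0.993 to 1.00). Each of these 8 values moved by over 1.5 times with 1 culture left out. The genotype difference was -0.36 for *Ticam1* and 0.04 for *Ticam2* without T32, -0.35 for *Tirap* without T15 and -0.21 for *Myd88* without T33. The IL-4 difference was 0.02 for *Myd88* without T33, -0.06 for *Tirap* without T15, 0.22 for *Ticam1* without T32 and 0.04 for *Ticam2* without T43.

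None of the 17 tested kinases and ubiquitin ligases, 9 transcription factors, 6 inhibitors or 9 target genes passed a test of genotype, IL-4 or the interaction. After median-ratio scaling of the libraries, 4 of the 68 pathway genes (5.88%) were lower in KI, against 1.6% of all genes called in either direction. Beside *Pik3ap1* and *Unc93b1* these were *Ly86*, which encodes the MD-1 partner of a TLR4-like receptor (-1.11, limma F-test, adjusted p = 0.0425, and 0.0664 as deposited), and *Nfkb2*, a subunit of NF-κB (-0.95, adjusted p = 0.0337, and 0.0637 as deposited). *Nfkb2* also passed after quantile normalization (adjusted p = 0.0329). *Ly86* and the ribonuclease gene *Rnaset2a* also passed without T22 (adjusted p = 0.0322 and 0.0415), and the chemokine gene *Cxcl10* was higher in KI without T32 (0.0326). Of the genes in these lists, *Irak4* and *Traf6*, which relay the signal from MYD88, differed by 0.15 and 0.10 with IL-4, and the inhibitors *Irak3* and *Nfkbia* by -0.19 and -0.24 (limma F-test, adjusted p from 0.928 to 1.00). Single cultures set the sign of *Traf6*, which was -0.19 without T43, and of *Irak3*, which was 0.17 without T15, and *Irak4* ranged from 0.08 without T13 to 0.28 without T33. The cytokine gene *Tnf*, a target of NF-κB, differed by -0.76 (limma F-test, adjusted p = 0.707), and by -0.48 without T22. With culture as a fixed replicate block, 4 more pathway genes passed the IL-4 test, *Ccl3* at -1.03 (adjusted p = 0.00192), *Ctsl* at 0.53 (0.00922), *Ctss* at 0.55 (0.00774) and *Ccl5* at 0.50 (0.0288) in limma's F-test. The 6 genes then called were 8.82% of the pathway genes tested, against 2.14% of all genes in the same fit. With culture as a random block, *Ccl3* passed (adjusted p = 0.0181) and *Ctsl*, *Ctss* and *Ccl5* did not (0.336, 0.367 and 0.816), and these 3 passed in 1 of 16 fits each. *Ccl3* and *Ccl5* encode chemokines induced by TLRs, and *Ctsl* and *Ctss* encode cathepsins that cleave endosomal TLRs. *Ccl3* passed in 5 of 16 fits, among them that without T15 (adjusted p = 0.0269).

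**Figure D5:**
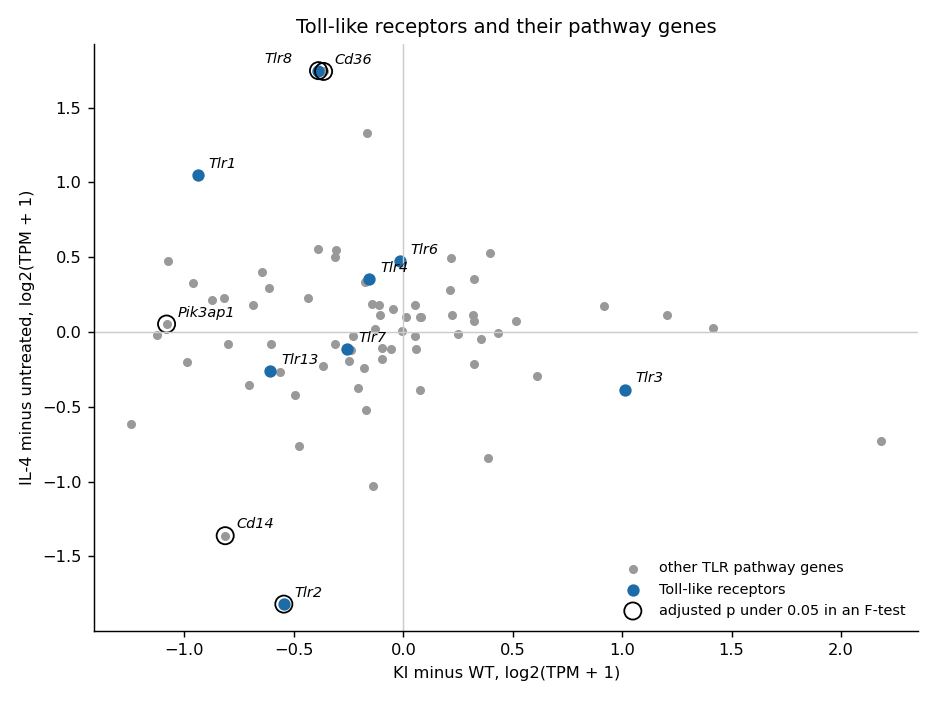
Each point is 1 gene, with the KI minus WT difference on the horizontal and the IL-4 minus untreated difference on the vertical axis, both in log2(TPM + 1), blue for TLR genes and grey for the 68 tested pathway genes. Rings mark adjusted p-values under 0.05, and they stand on *Tlr8* and *Cd36* at the top, *Tlr2* and *Cd14* at the bottom, and *Pik3ap1* at the left.

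Across the 12 libraries, the genes most like *Tlr2* were *Mtmr6* (Pearson's r = 0.965), *Cx3cr1* (r = 0.946), the fractalkine receptor and one of the microglial markers above, and *Cd14* (r = 0.935). Those most like *Tlr8* were *Trf* (r = 0.963), which encodes transferrin, *Rnf19b* (r = 0.962) and *Ptgs1* (r = 0.959). For *Tlr13* they were *2010111I01Rik* (r = 0.944), *Tpd52* (r = 0.936) and *Tox2* (r = 0.926), and for *Tlr1* *Ifi211* (r = 0.917), *Gm26520* (r = 0.891) and *Ifngr2* (r = 0.890). For *Tlr3* they were *Brd3os* (r = 0.917), *Ptk2* (r = 0.912) and *Gm14418* (r = 0.908), and for *Tlr6* *Pex7* (r = 0.904), *Arhgef10l* (r = 0.880) and *Bicral* (r = 0.872). For *Tlr4* they were *Cdc37* (r = 0.889), *Preb* (r = 0.847) and *H2-Ke6* (r = 0.840). Those of *Tlr7* included *Rpl37a* (r = 0.875), a ribosomal protein gene, and *0610040J01Rik* (r = 0.861). The 12 points share treatment, genotype and culture, so these values describe likeness in these libraries. Between receptors, *Tlr2* and *Tlr8* ran opposite to each other (r = -0.758), and *Tlr4* and *Tlr6* ran together (r = 0.702).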

How the data were processed

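Polyadenylated RNA of 12 libraries of primary microglia was sequenced. The authors' processing used Trim Galore to trim, Salmon with ENSEMBL GRCm38 to quantify and tximport to sum transcripts per gene (versions not given in the sources used here). The deposited values are TPM per gene. TPM sum to 1000000 in each library and keep no read counts, so the depth behind a value is unknown and the spread between cultures is the measure of error.

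Identifiers were matched to gene names of the GRCm38 annotation (48350 of 48623). Values were taken as log2(TPM + 1), a scale that understates changes of low genes. The 11204 genes with a mean above 1.5 entered limma's linear model (version 3.58.1, R 4.3.3, moderated with a variance trend) of genotype, IL-4 and their interaction. F-tests took each main factor together with the interaction, and p-values were adjusted by Benjamini-Hochberg over all genes tested. The authors' test used read counts, which were not analysed here. Tables and plots were made in Python 3.11.15.

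Libraries were paired by the culture number in the sample names. Deviations of same-numbered libraries from their group means correlated at 0.079 to 0.378, which is above 0.1 in 5 of the 6 cultures. P-values of the main fit rest on the spread between the 3 libraries of a group, each from a different culture. That fit took the 12 libraries as independent. Each culture thus entered a genotype test through both of its libraries, and the IL-4 tests did not use the pairing. The within-culture correlation in the random-block fit was 0.198. Fits with culture as a replicate block, other scalings, filters and pseudocounts, and each culture left out were alternatives, and the astrocyte covariate and the pathway lists without T15 were added after seeing the data. The receptors and the gene lists were chosen with earlier results of these data known. Named pathway genes are those past a threshold and 12 core genes, each receptor is given with the 3 genes of highest correlation except where one is not reported here, and *Ccl3*, *Ccl5*, *Ctsl*, *Ctss*, *Ly86*, *Nfkb2*, *Rnaset2a*, *Cxcl10*, *Siglech* and *Sall1* were chosen after their values were seen. The fit was also run on simulated data. Those libraries were independent and held no culture effect, so that run cannot show how the fit handles paired libraries.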

Additional observations from a re-analysis of the deposited data

How the results depend on the processing

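With no expression filter 1 TLR gene, *Tlr8*, passed the IL-4 test in place of 2, over 29745 genes, and *Tlr2* had a difference of -1.82 with an adjusted p of 0.0897. The cause was not tested. In the other 16 alternatives the count was 2, in those with culture as a replicate block too (fixed block, adjusted p = 2.47e-05 for *Tlr2* and 0.000374 for *Tlr8*). With each culture left out in turn, *Tlr2* ranged from -1.90 to -1.74 and *Tlr8* from 1.66 to 1.88. The counts for genotype (0 in 17 alternatives) and for the interaction (0 in 14) did not move with the block or any other alternative. TPM do not give the depth that limits the low genes.

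Signs that turned belonged to differences that did not pass a test. Taking the genotype differences relative to the microglial markers adds 0.56 to every gene, which by construction put those between -0.56 and 0 above 0, at 0.0146 for *Tlr2*, 0.406 for *Tlr4*, 0.545 for *Tlr6*, 0.304 for *Tlr7* and 0.173 for *Tlr8*. The cause of the other turns was not tested. The genotype difference of *Tlr6* was 0.192 in untreated cultures alone and ranged from -0.24 to 0.42 with a culture left out. *Tlr3* was 0.131 higher with IL-4 in KI alone. The interaction turned after quantile normalization for *Tlr7* (0.0655) and *Tlr13* (0.0115), after median-ratio scaling for *Tlr2* (0.0507), *Tlr7* (0.0712) and *Tlr13* (0.0128), and with the astrocyte covariate for *Tlr7* (0.0183) and *Tlr13* (0.0233). With a culture left out it ranged from -0.46 to 0.96 for *Tlr1*, -0.18 to 0.14 for *Tlr2*, -0.47 to 0.0019 for *Tlr4*, -0.86 to 0.12 for *Tlr6*, -0.17 to 0.19 for *Tlr7*, -0.084 to 0.35 for *Tlr8* and -0.30 to 0.10 for *Tlr13*.

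Over all genes, the genotype calls numbered 40 lower and 145 higher as reported, 73 and 106 after median-ratio scaling, 56 and 90 after quantile normalization, 30 and 95 with a pseudocount of 0.1, 2 and 24 with no variance trend, 7 and 9 with no filter, 15 and 38 with the astrocyte covariate, 21 and 56 with the random replicate block. With 1 culture left out they ranged from 1 and 2 without T33 to 23 and 168 without T13 and 68 and 114 without T22. The IL-4 calls went from 16 lower and 84 higher to 39 and 201 with the fixed block, 28 and 134 with the random block, 28 and 162 with the astrocyte covariate, 4 and 46 with no variance trend, 11 and 50 with no filter, and to between 4 and 42 (without T43) and 25 and 118 (without T15) with a culture left out. The median genotype difference over all genes moved from 0.129 to -0.0632 after quantile normalization.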
